A study of Homo sapiens with 16 samples.

Results

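The genes of the mitochondrial ribosomal proteins were followed through 9 h of UNBS1450 treatment in U937 cells. Members were all genes of the array annotation whose symbol is MRPL or MRPS followed by a number, without pseudogenes and antisense transcripts. The rule gave 76 of 17330 measured genes, 50 of them encoding proteins of the large and 26 of the small subunit. The members were read by 106 spots, with 1 spot for 52 genes and several for 24, and MRPL42 was not analysed here.

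Mitochondria carry their own ribosome, which translates the few messenger RNAs of mitochondrial DNA into core subunits of the respiratory chain and of ATP synthase. All of its proteins are encoded in the nucleus, made by cytosolic ribosomes and imported, so that the organelle depends on coordinated expression of many scattered nuclear genes. Some of these proteins descend from bacterial ribosomal proteins, and others have no bacterial counterpart. Drugs that inhibit mitochondrial translation are toxic to some leukaemia cells, which rely on respiration.

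U937 is a human monocytic line derived from a lymphoma, and some labels spell it U397. Cells exposed to 20 nM UNBS1450, a hemi-synthetic cardenolide that blocks the sodium pump, were set against control cells on 2-colour arrays at 3, 6 and 9 h. At 0 h the methods describe untreated cells in both channels, although the labels name the agent there too. Each time point had 4 arrays, with the treated RNA in Cy5 in replicates 1 and 2 and in Cy3 in replicates 3 and 4. All values are log2 ratios of treated over control cells, so a value of 0 means equal signal. The ratios carry no expression level, and fewer cells of a kind and less RNA per cell cannot be told apart. At 9 h 8 monocytic marker genes averaged between −0.31 (LYZ, limma adjusted p = 0.47) and 0.05 (ITGAM), and such ratios of a line against itself cannot check its identity.

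The family as a whole stayed close to 0 at every time point. Over 0, 3, 6 and 9 h the median of the 76 members was 0.02, 0.01, −0.01 and −0.06, beside −0.0061, −0.0022, −0.0045 and 0.0010 over all genes. The members with a mean below 0 numbered 29 at the start, 31 at 3 h, 42 at 6 h and 53 of 76 in the end, which is 69.7% of the members at 9 h beside 49.5% of all genes. Most shifts were small, as they were over all genes. At 9 h 68 of 76 members, or 89.5%, lay within 0.2 of 0, beside 85.6% of all genes. Within 0.1 of 0 lay 59.2% of the members, beside 63.9% of all genes.

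The 9 h shift did not run through all arrays. The median of the members at 9 h was 0.05 in replicate 1, −0.13 in replicate 2, 0.02 in replicate 3 and −0.16 in replicate 4. Members below 0 numbered 30, 65, 26 and 57 of 76 in these arrays, so that each dye orientation held 1 array near 0 and 1 clearly below it. The replicate 4 array at 9 h also stood apart in spread, with an SD over the members of 0.363 beside 0.108 to 0.147 on the other 9 h arrays, and an SD over all genes of 0.376 beside 0.150 to 0.210. Without replicate 4 the median at 9 h was −0.02.

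**Figure D1:**
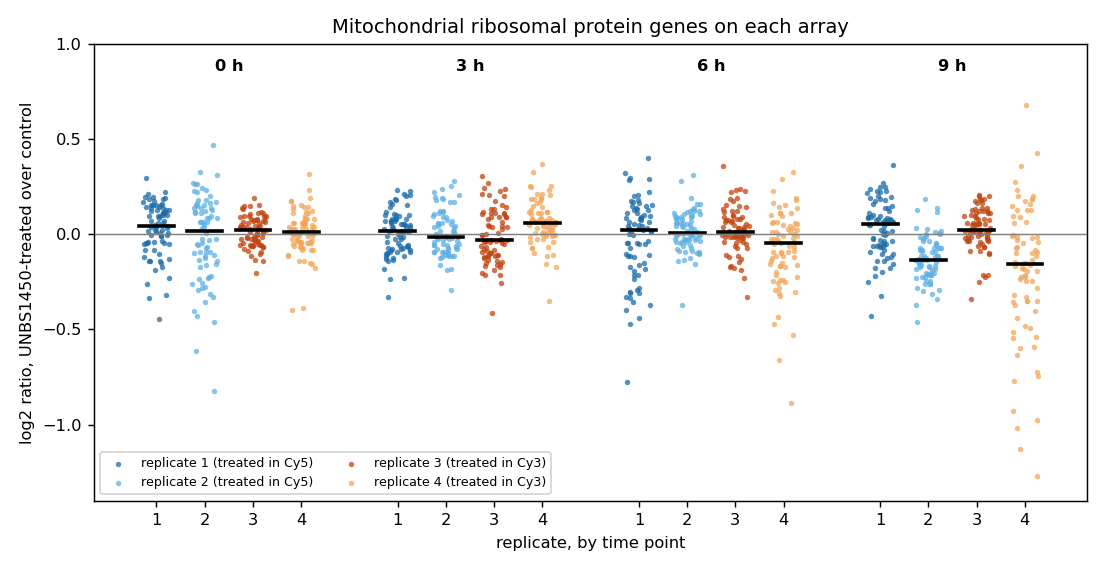
Log2 ratio of treated over control (y axis) of the 76 mitochondrial ribosomal protein genes on each of the 16 arrays (x axis: replicate number, grouped by time point). Each point is a gene, and the black bar is the median of the array. At 9 h the medians of replicates 2 and 4 lie below 0 and those of replicates 1 and 3 just above it.

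A gene counted as called when it changed at least 1.3-fold with a limma adjusted p under 0.05. No member was called at 0, 3 or 6 h, where 0% of all genes were called. At 9 h 1 of 76 members, MRPS31, was called, while 92 genes or 0.531% of all genes were called. With a dye coefficient in the limma fit the count of members was again 1, beside 1.88% of all genes. Without a fold minimum that fit passed 2 members, MRPS31 and MRPL39, beside 6.96% of all genes.

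Members were also counted at an unadjusted limma p under 0.05. At 0 h 0 members were lower and 1 was higher, beside 5.49% and 0.675% of all genes. At 3 h the counts were again 0 lower and 1 higher, beside 2.87% and 1.28%. At 6 h 3 members were lower and 1 was higher, beside 5.15% and 3.73%. At 9 h 12 of 76 members were lower and 2 were higher, beside 10.2% and 8.57% of all genes. The share of lower members was thus above that of all genes, and the share of higher members below it. These counts depended on replicate 4. Both directions together, 14 members passed at 9 h, but 5 without replicate 4 and 3 without its 9 h array alone. The shares of all genes in those 2 fits are not given here.

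Few members kept the same side of 0 on all 4 arrays. At 0 h 3 members lay below 0 on every array and 9 above it, beside 7.13% and 5.49% of all genes. At 3 h 4 lay below and 5 above, beside 8.07% and 5.6%. At 6 h 8 lay below and 10 above, beside 9.61% and 9.31%. At 9 h 6 members lay below on every array, or 7.89% of the family beside 11.1% of all genes. MRPS6 was the 1 member above on every array at 9 h, beside 9.63% of all genes.

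MRPS31 encodes a small subunit protein without a bacterial homolog and lies on chromosome 13 (GRCh38.p14, chr13:40729128-40771190). Its log2 ratios at 9 h were −0.33, −0.46, −0.22 and −0.98 in replicates 1 to 4, so that all 4 arrays were below 0 and replicate 4 was the lowest. The mean was −0.50 ± 0.33 (SD, n = 4; limma 95% interval −0.73 to −0.26), a treated over control fold of 0.709, with a limma adjusted p of 0.0456. With a dye coefficient the limma adjusted p was 0.0234. Without replicate 4 at all times the mean was −0.34, the limma adjusted p 0.0517 and the member no longer called. Without its 9 h array alone the limma adjusted p was 0.264, or 0.137 with a dye coefficient. Leaving out replicate 2 or 3 also ended the call, with limma adjusted p-values of 0.0988 and 0.139, and so did leaving out replicate 1.

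MRPS31 was not called at the earlier times. At 0 h its log2 ratios were 0.07, 0.06, 0.15 and 0.01. At 6 h they were −0.04, −0.16, −0.01 and −0.66, a mean of −0.22 (limma adjusted p = 0.591) that rested mainly on replicate 4. The log2 difference of 9 h minus 0 h was −0.57, which did not pass the test (limma adjusted p = 0.454).

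The other large shifts at 9 h were not called. MRPL39, a large subunit protein without a bacterial homolog, had log2 ratios of −0.03, −0.13, −0.11 and −0.73, below 0 on every array but with replicate 4 far from the rest. Its mean was −0.25 ± 0.32 (SD, n = 4; limma adjusted p = 0.254, and 0.0442 with a dye coefficient), and −0.09 without replicate 4. MRPL38, which sits in the central protuberance of the large subunit, had −0.25, −0.15, −0.03 and −0.48 (mean −0.23, limma adjusted p = 0.114).

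MRPL10, which anchors the stalk where translation factors bind, had log2 ratios at 9 h of −0.18, −0.14, −0.07 and −0.36 (mean −0.18, limma adjusted p = 0.108). MRPL24 had −0.06, −0.24, −0.01 and −0.32 and MRPL55 had −0.00, −0.14, −0.04 and −0.33, with means of −0.16 and −0.13. MRPS6, a small subunit protein of bacterial descent, had 0.37, 0.00, 0.11 and 0.19, with a mean of 0.17 ± 0.15 (SD, n = 4; limma adjusted p = 0.13). Replicate 2 alone put MRPS6 next to 0.

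Of the members with the lowest means at 9 h, 4 with arrays on both sides of 0 were picked out after their values were seen. MRPS17 had log2 ratios of 0.08, −0.12, −0.10 and −1.27, MRPL58 had 0.14, −0.09, −0.34 and −1.13, and MRPS26 had −0.09, −0.11, 0.01 and −1.02. In these 3 the means without replicate 4 were −0.05, −0.10 and −0.06. MRPL21 had −0.20, −0.31, 0.06 and −0.93, with a mean of −0.35 (limma adjusted p = 0.0959), and −0.15 without replicate 4. MRPL58, also known as ICT1, is a peptidyl-tRNA hydrolase that became part of the ribosome. At the other end MRPL49 had −0.06, −0.07, 0.17 and 0.68, again with replicate 4 the farthest out. Its mean of 0.18 was the highest of all members (limma adjusted p = 0.464), and 0.01 without replicate 4.

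**Figure D2:**
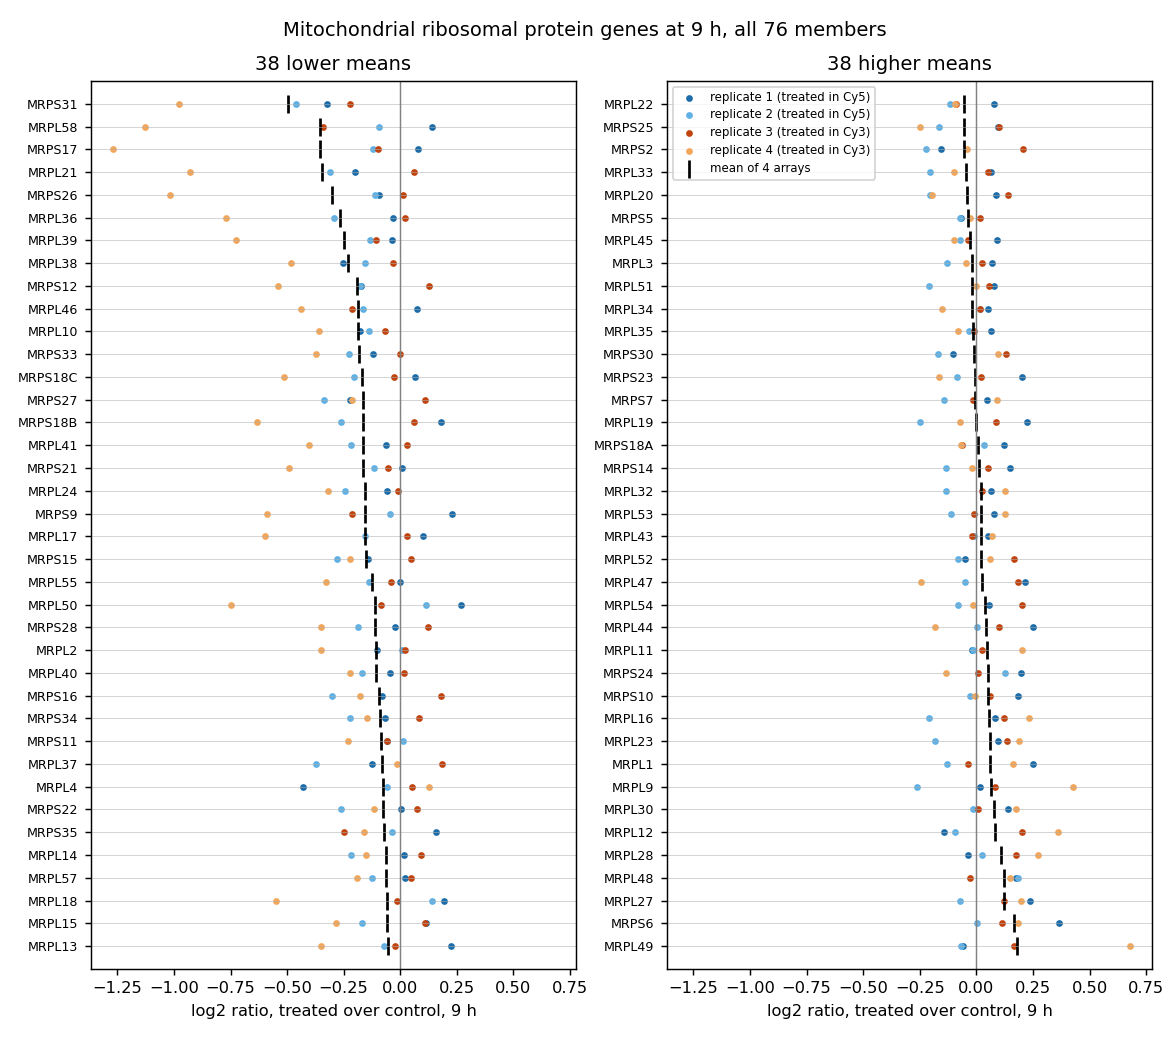
Log2 ratio of treated over control at 9 h (x axis) for all 76 members, ordered by their mean from lowest to highest down the page, left panel first. Coloured points are the 4 arrays and the black tick is their mean, which runs between −0.50 (MRPS31) and 0.18 (MRPL49), with the widest excursions in replicate 4.

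Members were also grouped by their place in the ribosome. At 9 h the large subunit genes had a median of −0.02, with 31 of 50 below 0, and the small subunit genes a median of −0.09, with 22 of 26 below 0. Without replicate 4 these medians were −0.01 and −0.04. Genes listed as having a bacterial homolog had a median of −0.05 (n = 46) and the others of −0.07 (n = 30). The list counted MRPS18C among the former but MRPS18A and MRPS18B among the latter, so the split depends on that choice. In replicates 1 to 4 at 9 h the large subunit medians were 0.065, −0.127, 0.024 and −0.095. Those of the small subunit were 0.004, −0.154, 0.033 and −0.217 on the same arrays. The groups were not tested against each other. MRPS12, the decoding site protein whose bacterial counterpart is altered in streptomycin resistance, had −0.18, −0.18, 0.13 and −0.54 at 9 h (mean −0.19, limma adjusted p = 0.329). MRPL12, the stalk protein that recruits translation factors, had −0.14, −0.09, 0.20 and 0.36 (mean 0.08, limma adjusted p = 0.764), with the sign following the dye.

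MRPL3, which reaches towards the catalytic centre, had log2 ratios of 0.07, −0.13, 0.02 and −0.05 at 9 h (mean −0.02). MRPS30 and MRPS18A, which carry small subunit names but sit in the large subunit, had means of −0.01 and 0.01 at 9 h. The former MRPS36, now KGD4 and a subunit of the 2-oxoglutarate dehydrogenase complex, was not counted as a member and averaged −0.03.

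Different spots of a gene did not always match. In 9 of the 24 members with several spots, spot means at 9 h lay on both sides of 0, and the median gap between the lowest and the highest spot of a gene was 0.10. The widest gaps were those of MRPL2 (−0.28 and 0.06), MRPL52 (−0.12 and 0.17) and MRPL50 (−0.25 and 0.02). MRPL2, a protein near the catalytic centre, is therefore uncertain in direction at 9 h, with −0.10, 0.01, 0.02 and −0.35 over its spots.

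The lowest and highest means before 9 h were taken among the members on 1 side of 0 on all arrays. At 0 h MRPL38 averaged −0.16, MRPL34 −0.08 and MRPS7 −0.07, while MRPL15 averaged 0.15, MRPL16 0.12 and MRPL20 0.09. At 3 h MRPL15, MRPL3 and MRPL16 averaged −0.08, −0.07 and −0.07, while MRPL2, MRPL38 and MRPL54 averaged 0.17, 0.14 and 0.14. At 6 h MRPL4, a protein of the exit tunnel, averaged −0.24, MRPL38 −0.23 and MRPS31 −0.22, while MRPL44, MRPS6 and MRPL9 averaged 0.10, 0.10 and 0.09. None of these passed the limma test.

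MRPL15 had log2 ratios of 0.18, 0.15, 0.10 and 0.17 at 0 h, a spread between arrays of 0.04 (SD) with no drug in either channel by the methods. At 9 h the same gene had 0.11, −0.17, 0.11 and −0.28. Ratios of this size therefore occurred on the 0 h arrays as well. Averaged over its 2 spots, MRPL38 was below 0 on all 4 arrays at 0, 6 and 9 h and above 0 on all 4 at 3 h. Neither spot alone showed this run. The spot means at 0 h were −0.33 and 0.02, and at 3 h the first of these spots had −0.16 in replicate 1.

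The members' ratios at 0 h were related to those at the later times. Across the 76 members the mean at 3 h ran against that at 0 h (Pearson's r = −0.66, beside −0.35 across all genes), while the mean at 6 h ran with it (r = 0.66, beside 0.50). For 9 h against 0 h r was −0.08, and for 9 h against 6 h it was 0.46. Within each dye orientation all these relations were positive. With treated RNA in Cy5 r was 0.24 for 3 h, 0.92 for 6 h and 0.47 for 9 h against 0 h, and with treated RNA in Cy3 it was 0.56, 0.55 and 0.29. The negative relation of 3 h with 0 h was thus seen in the means over both orientations and in neither orientation alone. Genes are not independent replicates, and these values are descriptions. MRPL4 was lowest at 0 h (−0.30), highest at 3 h (0.18) and lowest again at 6 h (−0.24), and MRPL2 had −0.19, 0.17 and −0.09.

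**Figure D3:**
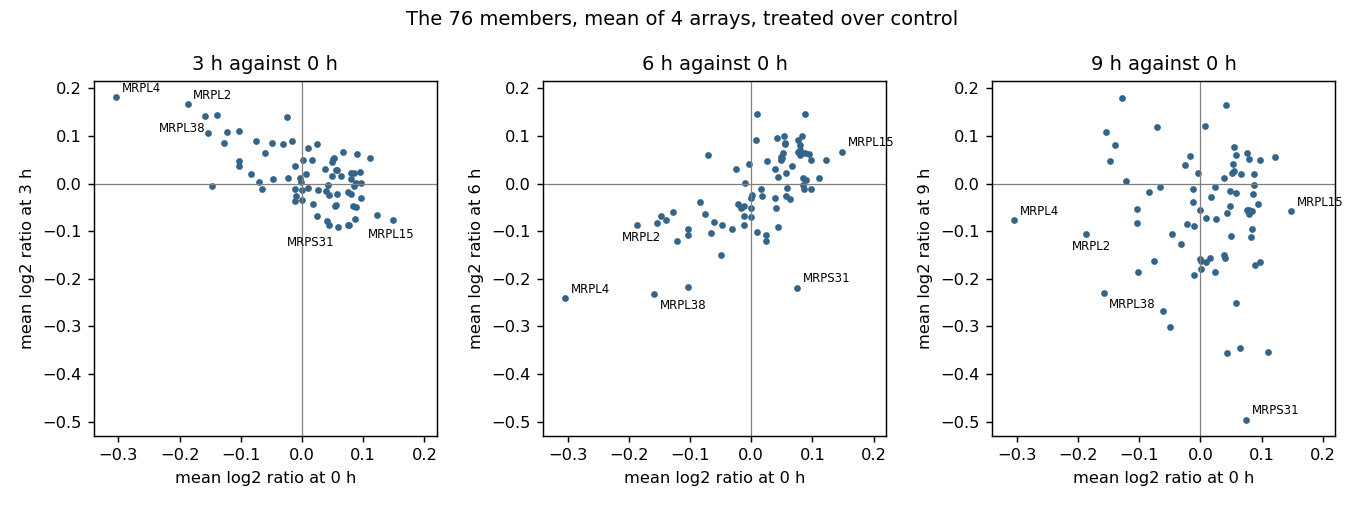
Mean log2 ratio of treated over control of each of the 76 members at 3, 6 and 9 h (y axes) against its mean at 0 h (x axis), each over 4 arrays. The points fall to the right at 3 h (r = −0.66), rise to the right at 6 h (r = 0.66) and are nearly level at 9 h (r = −0.08), although within each dye orientation alone r is above 0 at all 3 times. At 9 h MRPS31 is the lowest point.

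Similar relations were seen between single arrays. The 0 h arrays of replicates 1 and 2 correlated at r = 0.83 across the members, and the 0 h array of replicate 2 at 0.93 with the 6 h array of replicate 1. The 0 h array of replicate 2 correlated at −0.88 with the 3 h array of replicate 3, whose dyes were the other way round, so that their Cy5 over Cy3 ratios ran in parallel before the sign was turned. Between arrays of 1 time point the members correlated at 0.04 to 0.83 where the dye orientation was the same and at −0.53 to 0.20 where it was opposite. The 6 h and 9 h arrays of replicate 4 correlated at 0.68 across the members and at 0.72 across all genes. The part of dye and array in the time course of the members was not tested.

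Some members differed between the dye orientations on average over the 4 time points. MRPL58 had log2 ratios at 0 h of 0.30, 0.47, −0.20 and −0.39, and over the 8 arrays of each orientation it averaged 0.24 with treated RNA in Cy5 and −0.49 with treated RNA in Cy3. MRPS27 averaged −0.28 and 0.14 in the same order, and MRPL4 −0.32 and 0.10. In the dye coefficient the median size was 0.04 over the members, against 0.05 over all genes.

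Time points were also compared with each other within the limma fit, and no member was called in any of the 6 contrasts, in which 0% of all genes were called. Robust regression called 1 member, MRPS31, in that of 9 h minus 0 h, beside 0.635% of all genes. The median of the members was −0.07 for 9 h minus 0 h and −0.07 for 9 h minus 3 h, beside all-gene medians of 0.02 and 0.00034. At an unadjusted p under 0.05 5 members were lower and 0 higher at 9 h than at 0 h, beside 5.09% and 4.51% of all genes. Against 3 h 10 were lower and 0 higher at 9 h, beside 5.53% and 6.57% of all genes. The smallest p of the 9 h minus 3 h contrast was that of MRPL38 (log2 difference −0.37, limma adjusted p = 0.299), whose 3 h ratios were 0.01, 0.24, 0.20 and 0.11. Both contrasts share the 9 h arrays.

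Promoter sequence was read apart from the array values. RefSeq windows of 250 bases before and 50 after an annotated start of a gene (GRCh38.p14) were found for 68 of 76 members and for 13676 measured genes. In the first listed window of each gene 6 motifs were searched on both strands, and further windows of a gene were left out. The ETS motif CCGGAAG, as bound by GABP, was in 29 member windows or 42.6%. It was in 15.4% of those of measured genes and in 10.7% of those of all 27305 genes with a window. The YY1 motif AAGATGGC was in 19 or 27.9%, against 4.26% and 3.03%. At least 1 of these was in 40 member windows or 58.8%, against 18.7% of measured genes. Both were in 8 members or 11.8%, against 0.98% of measured genes.

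The other 4 motifs differed less in their shares. The NRF1 motif GCGCATGCG was in 3 members or 4.41%, against 3.01%, and the E-box CACGTG, as bound by MYC, in 6 or 8.82%, against 9.17%. In windows that began 150 bases before the start the E-box was in 2.94% of members, against 7.03%. The GC box GGGCGG was in 61.8%, against 61.6%, and the NFY motif CCAAT in 29.4%, against 36.6%. No motif is contained in another, although neighbouring sites can share bases. Members with the ETS motif had a median log2 ratio of −0.02 at 9 h and those without −0.06, and for the YY1 motif these were −0.03 and −0.06. A match is a run of letters and not a measured binding site.

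**Figure D4:**
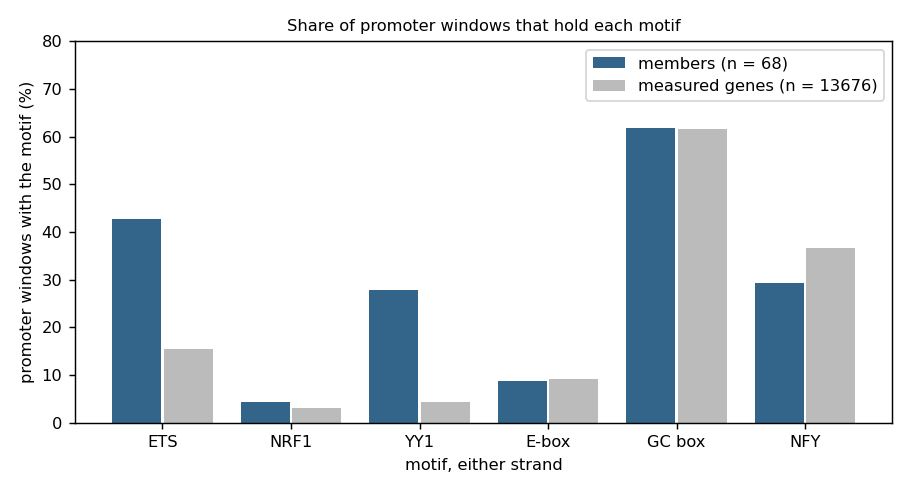
Share of promoter windows with each of 6 motifs on either strand (y axis, percent) for the members (blue, n = 68) and for all measured genes (grey, n = 13676). The ETS and YY1 bars of the members, 42.6% and 27.9%, stand above those of measured genes, 15.4% and 4.26%.

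Windows are shown for the called member, for MRPL39 and for MRPS12, whose window held both the ETS and the YY1 motif, and these were picked after the values were seen. Capitals mark the searched motifs on either strand, and each window is given 5′ to 3′ on the strand of its gene. They lie at chr13:40771141-40771440 (minus strand), chr21:25607432-25607731 (minus strand) and chr19:38930694-38930993 (plus strand).
MRPS31: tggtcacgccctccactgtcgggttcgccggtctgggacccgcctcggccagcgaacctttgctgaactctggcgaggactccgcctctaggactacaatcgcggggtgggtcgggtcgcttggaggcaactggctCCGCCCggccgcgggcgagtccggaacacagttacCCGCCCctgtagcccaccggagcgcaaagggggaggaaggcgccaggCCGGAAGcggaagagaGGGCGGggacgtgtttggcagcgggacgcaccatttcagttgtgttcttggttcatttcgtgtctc
MRPL39: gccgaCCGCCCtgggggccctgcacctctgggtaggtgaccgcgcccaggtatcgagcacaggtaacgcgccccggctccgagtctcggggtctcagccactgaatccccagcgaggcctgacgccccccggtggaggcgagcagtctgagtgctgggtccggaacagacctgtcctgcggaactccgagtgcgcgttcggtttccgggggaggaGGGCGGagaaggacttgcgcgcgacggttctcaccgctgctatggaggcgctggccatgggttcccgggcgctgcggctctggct
MRPS12: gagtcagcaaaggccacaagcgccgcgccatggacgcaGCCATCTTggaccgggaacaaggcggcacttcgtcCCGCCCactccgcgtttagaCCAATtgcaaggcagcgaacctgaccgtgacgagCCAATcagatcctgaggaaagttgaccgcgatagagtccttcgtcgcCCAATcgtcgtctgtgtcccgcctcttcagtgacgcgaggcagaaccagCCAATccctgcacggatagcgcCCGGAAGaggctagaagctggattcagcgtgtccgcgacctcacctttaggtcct
In the MRPS31 window the ETS motif starts at −32 from the gene's start and GC boxes at −114, −79 and −16. Of the searched motifs the MRPL39 window held GC boxes alone, at −245 and −35 from the start used for it. That start lies inside the gene, whose 5′ end is annotated at chr21:25607859, so the sequence around that end was not searched. In the MRPS12 window the YY1 motif starts at −212, a GC box at −177, 4 NFY motifs at −157, −123, −76 and −27, and the ETS motif at −5.

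Some members share their promoter region with a gene on the other strand. For 23 of 68 members, or 33.8%, a window overlapped that of an opposite-strand neighbour, against 22.1% of measured genes. All listed windows were used here, and in 16 pairs the neighbour was measured. MRPL46 and MRPS11, both members, start 320 bases apart on chromosome 15 and averaged −0.19 and −0.08 at 9 h. MRPS12 starts 181 bases from SARS2, the mitochondrial seryl-tRNA synthetase, whose log2 ratios at 9 h were 0.28, 0.90, −0.08 and −0.98 and so scattered on both sides of 0. MRPS27 starts 133 bases from PTCD2, a mitochondrial RNA processing protein, which had −0.34, −0.21, −0.32 and −0.39 (mean −0.32, limma adjusted p = 0.0727), while MRPS27 had −0.22, −0.34, 0.11 and −0.21.

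The other genes of mitochondrial translation were taken from 6 lists. Of 25 genes for mitoribosome assembly and ribosomal RNA modification, 21 had a mean below 0 at 9 h and 11 were below 0 on all 4 arrays, with a median of −0.17, or −0.15 without replicate 4. At 6 h 21 of 25 were also below 0, with a median of −0.14, or −0.05 without replicate 4. RBFA, a maturation factor of the small subunit, was called lower at 9 h, with log2 ratios of −0.20, −0.42, −0.30 and −1.24 (mean −0.54, limma adjusted p = 0.0473). The GTPases NOA1 (mean −0.33) and GTPBP10 (mean −0.31), singled out after their values were seen, each had a limma adjusted p of 0.0394 but missed the fold minimum. With a dye coefficient 4 genes of this list were called lower, namely RBFA, TFB1M (mean −0.70), MALSU1 (mean −0.51) and DDX28 (mean −0.47). Without replicate 4 their means were −0.31, −0.31, −0.29 and −0.28, and with the 9 h array of replicate 4 left out none of them was called by that fit.

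Of 14 translation factors 9 lay below 0 at 9 h, with a median of −0.04. MTRFR, a release factor homolog that rescues stalled mitoribosomes, was called lower, with −0.60, −0.18, −0.82 and −0.83 (mean −0.61, limma adjusted p = 0.0479). Of 16 mitochondrial aminoacyl-tRNA synthetases 9 lay below 0, with a median of −0.05 and none called in the fit without a dye coefficient. They reached between PARS2, the prolyl-tRNA synthetase, at −0.67 (limma adjusted p = 0.0742) and HARS2, the histidyl-tRNA synthetase, at 0.15. PARS2 was called with a dye coefficient (limma adjusted p = 0.0393), and its mean without replicate 4 was −0.35. Without replicate 1 or replicate 3, and without the 9 h array of replicate 4, 0 genes of the whole array were called at 9 h, so that the calls of RBFA and MTRFR were lost too.

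Of 10 genes for transcription and RNA processing of mitochondrial DNA 8 lay below 0 at 9 h, with none called without a dye coefficient, between PTCD1 at −0.43 and TFAM, the DNA packaging factor, at 0.18. PTCD1 was called with a dye coefficient (limma adjusted p = 0.0251), and its mean without replicate 4 was −0.24. Of 10 nuclear regulators 7 lay below 0, with none called without a dye coefficient. MYC, a growth factor-induced transcription factor, had −0.41, −0.55, −0.35 and −2.47 (mean −0.95, or −0.44 without replicate 4, limma adjusted p = 0.0852), with replicate 4 far below the rest. With a dye coefficient MYC was called (limma adjusted p = 0.0460). None of PARS2, PTCD1 and MYC was called by that fit without the 9 h array of replicate 4. GABPB1, a partner of the ETS protein GABPA, was highest at 0.15. The 4 ribosome subunits with other names lay between GADD45GIP1 at −0.15 and PTCD3 at 0.17, with none called.

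The cytosolic ribosomal proteins and the respiratory chain served for comparison. Over 0, 3, 6 and 9 h the median of 70 cytosolic ribosomal protein genes was −0.07, 0.01, −0.05 and −0.02. In replicates 1 to 4 at 9 h their medians were −0.078, 0.180, −0.074 and −0.087, so that replicate 2 went against the others. The median of 80 oxidative phosphorylation subunit genes was 0.01, 0.04, 0.02 and 0.02. None of either list was called at 9 h. The cytosolic genes deviated most from 0 at 0 h, where 62 of 70 lay below it, and no test of the difference between lists was made.

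**Figure D5:**
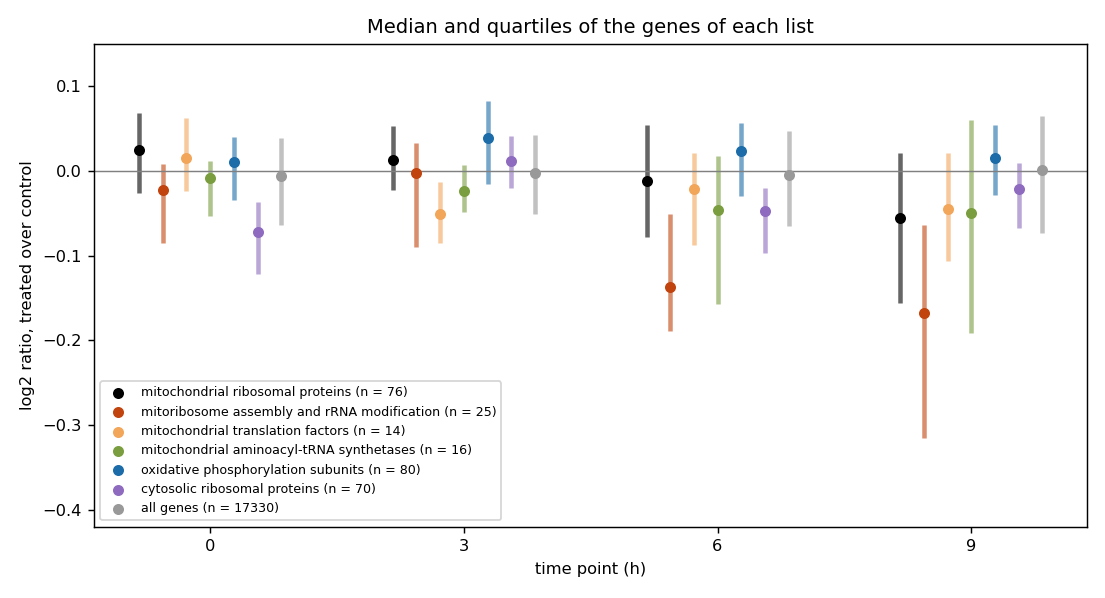
Median (point) and quartiles (bar) of the mean log2 ratio of treated over control (y axis) for the genes of each list and for all genes at 0, 3, 6 and 9 h (x axis). The mitochondrial ribosomal proteins stay near 0 with a median of −0.06 at 9 h, and the assembly and rRNA modification genes lie lower at 6 h (−0.14) and 9 h (−0.17).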

How the data were processed

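The authors hybridised RNA of treated and control U937 cells on 2-colour arrays, read the spots with GenePix and processed them with limma, per their methods, with normexp for the background, then loess normalization on each array, then Aquantile across arrays. The deposited values are log2 ratios of Cy5 over Cy3, with array medians between −0.0071 and 0.0033. Of any further centring nothing is stated. Intensities and spot weights were not used here.

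Of 45220 spots, 40563 had values on all 16 arrays, and the 28970 spots of a single gene covered 17330 genes. Gene symbols follow the RefSeq table of GRCh38.p14, matched on gene identifiers. The sign of replicates 3 and 4 was reversed and the spots of a gene were averaged. All arrays entered a linear model with 1 term for each time in limma 3.58.1 in R 4.3.3 (residual degrees of freedom 12, prior 3.20), and p-values were adjusted over all genes per time point by the Benjamini-Hochberg method. Calls required a fold change of 1.3 or more and an adjusted p below 0.05. On simulated data of 17330 genes at 9 h this recovered 75% of changes of 0.5 and 99% of changes of 1 on the log2 scale. The simulated noise was independent between arrays, had the same SD on all arrays for each gene and held no dye effect. The real arrays differed in spread and by dye, so these shares do not give the recovery on them. With 4 arrays per time point precision is limited, and p-values measure the spread between arrays, since separate cultures are not stated for the replicates.

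The members, lists, motifs and tests were chosen with earlier results of these data known. Named members were those called, the 6 lowest and highest at 9 h and the 3 lowest and highest at earlier times among members on 1 side of 0 on all arrays, those with the 3 widest gaps between spots, and a few fixed for their role. From each list the called genes, or else the extremes, were named. Alternatives were a dye coefficient, a replicate block, other spot summaries, robust regression, array weights, centring, scaling and leaving out arrays. In the main fit replicate numbers were not taken to pair the arrays. After removing time and dye, 10 of 24 same-numbered pairs correlated above 0.1 (range −0.42 to 0.50). All 4 pairs of 6 h with 9 h were among them, so results at these times may not be independent.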

Additional observations from a re-analysis of the deposited data

Results flagged for a closer look

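Dixon's test was run on 37 results, not on every member named above. In 2 of them, both of named members, a single array lay far from the other 3 of its time point. MRPL39 had a log2 ratio of −0.73 in replicate 4 at 9 h, against −0.03, −0.13 and −0.11 in the other replicates. MRPL4 had −0.78 in replicate 1 at 6 h, against −0.04, −0.05 and −0.09. Chance alone marks about 1 in 20 groups in this way. Over the family such an array was found for 1 member at 0 h and for 5 members at each later time, or 6.58% of the members at 9 h beside 7.83% of all genes. For 3 of the 5 members at 9 h it was the replicate 4 array. MRPS17 and MRPS26, with −1.27 and −1.02 there, were among these but not among the 37 results.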

How the results depend on the processing

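Among the settings that kept both dye orientations, MRPS31 was the called member at 9 h in every one that called a member. It kept its sign in all of these, with log2 ratios between −0.59 and −0.33. The count of called members was 0 with array weights, with each time point fitted on its own arrays, with p-values adjusted over 3, 6 and 9 h together, and without each replicate in turn (0 to 0). It was also 0 without the 9 h array of replicate 4, with or without a dye coefficient, a choice made after seeing the data. These settings change the spread, the arrays or the number of tests, and the cause was not tested. The limma adjusted p of MRPS31 ran from 0.00117 with robust regression to 0.519 on its own arrays. Robust regression also called MRPS31 between 0 and 9 h, so that 1 member was called there, beside 0.635% of all genes (log2 difference −0.47, adjusted p = 0.00838).

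Over all genes the count called at 9 h was 92, with 325 under a dye coefficient, 299 with the spot of highest F, 181 with robust regression, 55 with arrays scaled to equal spread, 7 with array weights, 0 on its own arrays, and 0, 17, 0 and 32 without replicates 1, 2, 3 and 4. With a replicate block the counts were 1 member and 99 genes, and the limma adjusted p of MRPS31 was 0.0444.

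The median of the members at 9 h stayed below 0 in all settings, between −0.09 and −0.02. At 6 h it was 0.0239 with treated RNA in Cy5 only and 0.01 without replicate 4. With windows of 150 bases before the start the E-box was in 2.94% of member windows, against 7.03% of measured genes.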
